A study of Mus musculus with 8 samples.

Results

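The clustered histone genes encode the H1, H2A, H2B, H3 and H4 proteins and lie mostly in gene clusters. Members were the genes in the table of mRNA counts whose mm9 symbol begins with Hist1h, Hist2h, Hist3h or Hist4h, and there were 64 of them among 21915 listed genes. By histone type these were 5 H1, 17 H2A, 18 H2B, 11 H3 and 13 H4 genes. By cluster, 54 carried a Hist1, 6 a Hist2, 3 a Hist3 and 1 a Hist4 symbol. The mm9 annotation holds 70 such genes, and the other 6, Hist1h1t, Hist1h2aa, Hist2h2aa1, Hist2h2aa2, Hist2h2bb and Hist2h3b, are not analysed here. Of the 64 genes, 38 passed a filter on low counts and were tested, namely 3 H1, 11 H2A, 14 H2B, 8 H3 and 2 H4 genes.

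Polyadenylated RNA was sequenced from Hepa 1-6 cells, a mouse hepatoma line, to see how loss of KAP1, the corepressor encoded by Trim28, alters transcript levels. There were 2 control and 2 Kap1 knockdown (Kap1 KD) samples, collected 5 days after transduction. Kap1 KD cells received an shRNA against Kap1 from a pLKO lentiviral vector, control cells received the empty vector according to the methods and a control shRNA according to the sample labels, and both were selected with puromycin. The labels mark 1 sample of each group with the number 2, and the other, unnumbered sample is taken as replicate 1, and the samples are called control 1, control 2, KD 1 and KD 2. No label says that the replicates were separate cultures, so p-values measure only the spread between these samples, which may be technical. The count totals were 53605115 in control 1, 49915004 in control 2, 41566888 in KD 1 and 49578846 in KD 2.

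Most clustered histone genes are transcribed during S phase, when new DNA is packed into nucleosomes. Their mRNAs usually end in a short hairpin, the histone stem-loop, which is bound by the protein Slbp, instead of in a poly(A) tail. Some of these genes also give polyadenylated transcripts that run past the stem-loop to a later end.

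The hairpin was looked for in the 200 bases after each annotated stop codon, because it marks how these mRNAs end. It is a stem of 6 base pairs around a loop of 4 bases. Of the 67 annotated members with a stop codon, 60 (89.6%) had a match to the histone stem-loop, against 34 of 21862 other protein-coding genes (0.156%). In members the matches began between 22 and 59 bases after the stop codon and took 8 forms, the most frequent in 36 genes and the next in 9. The search did not require every base of the stem to pair. All 8 forms in members were fully paired, whereas some matches in other genes, such as Rplp1 and Adcy1, held a mismatch. The share for other genes therefore counts matches to the pattern and not only full hairpins. Below are the stem-loops of members whose counts are described further on, given 5′ to 3′ on the strand of the gene, with the 16 bases of stem and loop in capitals and 4 bases of flank on each side.
Hist1h1c: aaaaGGCTCTTTTCAGAGCCacca
Hist1h1e: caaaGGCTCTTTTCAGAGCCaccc
Hist1h2ac: caaaGGCTCTTTTCAGAGCCccca
Hist1h2bl: caaaGGCTCTTTTAAGAGCCaccc
Hist1h3e: aaacGGCTCTTTTAAGAGCCacct
Hist1h4i: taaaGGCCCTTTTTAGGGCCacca
Hist1h4d: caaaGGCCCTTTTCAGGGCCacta
In mm9 the Hist1h1c hairpin lies at chr13:23831381-23831396 (plus strand), that of Hist1h1e at chr13:23713651-23713666 (minus strand) and that of Hist1h4i at chr13:22132835-22132850 (minus strand). The H4 genes differ from the other types in the stem, while all the printed loops begin with the same 3 bases. Hist2h2be, the second most counted member, had no match in this window.

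The Hist1 genes lie on chromosome 13 between 21807632 and 24026720, apart from Hist1h2al near 51298057 on the same chromosome. The Hist2 genes are on chromosome 3, the Hist3 genes on chromosome 11 and Hist4h4 on chromosome 6. Within the clusters, 24 genes form 12 divergent pairs of an H2A and an H2B gene, with 167 to 268 bases between their starts. The stretches of 2 such pairs are printed here because their partners are compared below, on the plus strand of mm9, with the motif CCAAT, the motif TATAAA and the octamer ATTTGCAT on either strand in capitals. The stretch between Hist1h2ac and Hist1h2bc is chr13:23775818-23776067 and the stretch between Hist2h2ac and Hist2h2be is chr3:96024804-96025043.
Hist1h2ac and Hist1h2bc: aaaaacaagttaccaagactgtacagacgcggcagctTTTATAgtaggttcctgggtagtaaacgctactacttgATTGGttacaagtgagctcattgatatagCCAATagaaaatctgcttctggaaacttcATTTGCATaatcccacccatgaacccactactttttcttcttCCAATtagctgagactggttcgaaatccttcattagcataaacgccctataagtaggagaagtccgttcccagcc
Hist2h2ac and Hist2h2be: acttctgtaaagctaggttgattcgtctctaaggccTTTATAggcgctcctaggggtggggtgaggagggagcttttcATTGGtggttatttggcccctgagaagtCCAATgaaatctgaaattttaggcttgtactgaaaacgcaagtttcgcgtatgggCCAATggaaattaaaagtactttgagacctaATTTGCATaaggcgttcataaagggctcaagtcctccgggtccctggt
Around the starts of the 70 annotated members, from 250 bases before to 50 after, CCAAT occurred in 84.3%, against 37.8% of 22313 other protein-coding genes. By type it was found in 100% of H1 and H2B, 95% of H2A, 91.7% of H3 and 30.8% of H4 genes. The octamer occurred in 35% of H2A and 47.4% of H2B genes and in 0 H1, H3 or H4 genes, against 1.66% of other genes. TATAAA occurred in 54.3% of members, against 13.3% of other genes. These are letter matches and were not tested as binding sites.

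Trim28 was read as a check of the labels. It had 456 and 574.5 CPM (library-scaled counts after TMM normalisation) in control 1 and control 2, and 105.9 and 78.9 CPM in KD 1 and KD 2. Both Kap1 KD samples were thus below both controls, as their labels say. Its log2 change was -2.48 with standard error 0.25, and the quasi-likelihood test of edgeR gave 0.9999 as p adjusted by the Benjamini-Hochberg method.

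The hepatocyte character of the hepatoma line was read against 8 marker genes. Their summed level was 2398 CPM in control 1, 2004 in control 2, 1672 in KD 1 and 1045 in KD 2, with Alb the most abundant in all but KD 2, where Afp was just above it, and of the 6 that were tested 0 were called, 1 with an unadjusted p under 0.05. With the replicate block described below, edgeR called Alb and Apoa1 lower, against 2.4% of tested genes, Apoa1 from only 18, 21, 5 and 8 counts. In both Kap1 KD samples, 4 of the 8 markers were below both controls, against 10.2% of listed genes. Alb, Afp and Hnf4a were present in all 4 samples, while Ttr and Serpina1b had at most 13 counts in any sample, so that this hepatoma line carried only some hepatocyte transcripts. In bulk RNA, fewer cells of a type and less RNA per cell cannot be told apart. Leukocyte markers summed to between 4.22 and 9.78 CPM, led by Cd68, with Ptprc at most 0.171 CPM. Endothelial markers summed to at most 0.282 CPM, led by Pecam1, with Kdr at 0 counts in both controls. Stromal markers summed to between 2.19 and 2.46 CPM, led by Des in both controls and by Col1a1 in both Kap1 KD samples, with Pdgfrb at most 1 count. Bile duct markers summed to 138.9, 89.3, 109.5 and 69.6 CPM in the same order of samples as the hepatocyte sum, led by Krt7 in the replicate 1 and by Sox9 in the replicate 2 samples. With the block, Epcam of the bile duct list was called lower and Col1a1 of the stromal list higher, against 2.4% and 2.06% of tested genes. In both Kap1 KD samples, 2 of 4 bile duct markers were below both controls, against 10.2% of listed genes.

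KD 2 stood apart from the other 3 libraries in 7SK, snRNA and the annotation class misc_RNA. The 49 loci annotated as 7SK, a small nuclear RNA that restrains transcription elongation, took 0.000248% of all counts in control 1, 0.00019% in control 2, 0.000248% in KD 1 and 0.00406% in KD 2. Genes of snRNAs, the RNAs of the splicing machinery, took 0.000586%, 0.000451%, 0.000657% and 0.00112% in the same order. Genes annotated as rRNA took 7.28e-05%, 5.21e-05%, 7.22e-05% and 0.000127%, from only 39, 26, 30 and 63 counts. KD 2 was the highest sample in each of these 3 classes, though for rRNA its Wilson interval overlapped those of control 1 and KD 1, with 21.3, 2.48 and 2.44 times the share of control 2. The snoRNA genes differed, with 0.00787%, 0.00428%, 0.00683% and 0.00459%, so that both replicate 2 samples were low. Genes annotated as misc_RNA, 7SK among them, took 0.000817%, 0.000537%, 0.00077% and 0.0065%, with 12.1 times the share of control 2 in KD 2. All these short RNA genes and misc_RNA genes without 7SK took 0.00909%, 0.00513%, 0.00808% and 0.00826%, with KD 2 below control 1. This sum was led by snoRNA genes, with 4217 of 4875 counts in control 1 and 2275 of 4096 in KD 2. It therefore does not show how misc_RNA genes other than 7SK stood in KD 2. The results on histone genes are therefore given for each replicate number and without this library, and the part of these other RNAs in them was not tested.

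The histone genes took a small share of all counts. It was 0.00529% in control 1 (95% Wilson interval 0.0051% to 0.00549%), 0.00563% in control 2 (0.00543% to 0.00584%), 0.00545% in KD 1 (0.00523% to 0.00568%) and 0.0107% in KD 2 (0.0104% to 0.011%). KD 2 was the only high sample, and the other 3 had overlapping intervals, which cover counting error only. The mean share was 0.00546% ± 0.000242 (SD, n = 2) in control and 0.00807% ± 0.00371 (SD, n = 2) after Kap1 knockdown. The ratio of Kap1 KD to control was 1.48, with p = 0.667 in an exact two-sided permutation test, which cannot give less than 0.333 with these group sizes. The ratio was 1.03 between the replicate 1 samples, 1.90 between the replicate 2 samples and 0.998 when KD 2 was left out.

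**Figure D1:**
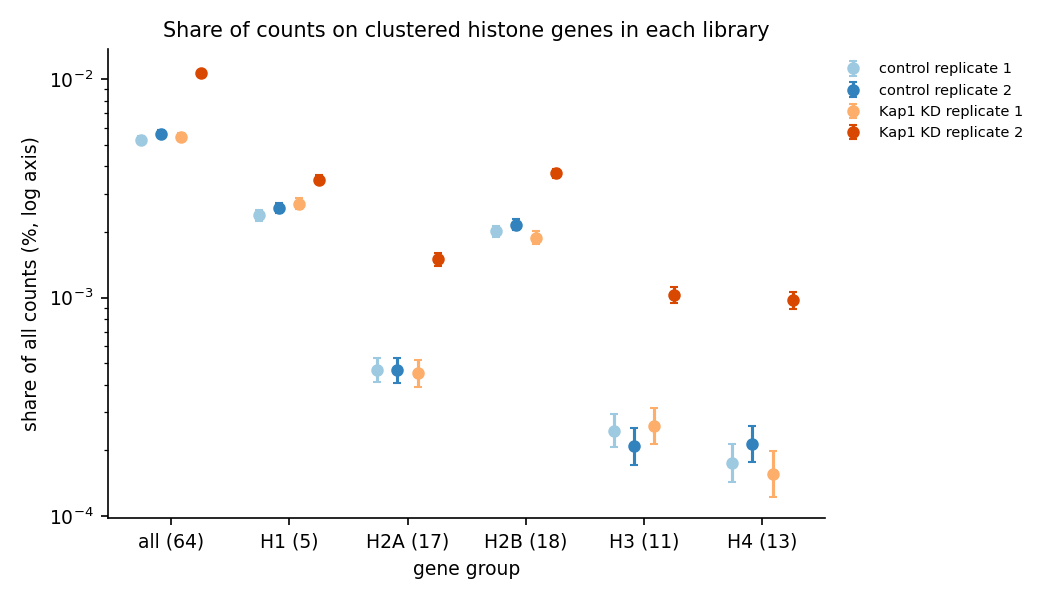
Share of all counts, in percent on a log axis, on all 64 clustered histone genes and on each histone type (number of genes in parentheses) in the 4 libraries, with 95% Wilson intervals as bars. KD 2 lies above the other 3 libraries in every group, by least for H1 (0.00348% against 0.0027% in KD 1).

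The summed shares of the histone types differed in how far KD 2 departed. The H1 linker histone genes took 0.00238% and 0.00258% of counts in control 1 and control 2, and 0.0027% and 0.00348% in KD 1 and KD 2. For H2B, which pairs with H2A in the nucleosome core, these shares were 0.00202%, 0.00216%, 0.00188% and 0.00372%. Both Kap1 KD samples were above both controls for H1, though the intervals of KD 1 and control 2 overlapped. Hist1h1c led this order, with 1072 of the 1123 H1 counts in KD 1. For H2B, KD 1 was the lowest sample, with an interval that overlapped that of control 1. The H2A genes took 0.000466%, 0.000465%, 0.00045% and 0.0015%. The H3 genes took 0.000246%, 0.000208%, 0.000257% and 0.00103%, and the H4 genes 0.000175%, 0.000214%, 0.000156% and 0.000972%. In H2A, H3 and H4 the first 3 libraries had overlapping intervals and KD 2 was above all of them. Between the replicate 2 samples the ratio was 1.35 for H1, 1.72 for H2B, 3.22 for H2A, 4.54 for H4 and 4.95 for H3. The low value for H1 rests on Hist1h1c. Over all 4 samples, the ratio of Kap1 KD to control for H1 was 1.25 with this gene and 2.64 without it, against 2.83 for H3 and 2.90 for H4. For H2B, Hist2h2be held 622 of 1080 counts in control 2 and 683 of 1844 in KD 2. Gene by gene, the median log2 change between the replicate 2 samples over tested members was 1.65 for H1, 1.48 for H2B, 1.64 for H2A, 1.78 for H4 and 2.39 for H3. By this measure only H3 stood apart. Between the replicate 1 samples the ratio of shares was 1.13, 0.933, 0.965, 0.892 and 1.05 for the same types. Without KD 2 the ratio of Kap1 KD to control was 1.09 for H1, 0.901 for H2B, 0.966 for H2A, 0.802 for H4 and 1.13 for H3.

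By cluster, the Hist1 genes took 0.0039%, 0.00422%, 0.00413% and 0.00885% of counts in control 1, control 2, KD 1 and KD 2. The Hist2 genes took 0.00129%, 0.00132%, 0.00124% and 0.00174%, and the 3 Hist3 genes 9.51e-05%, 8.82e-05%, 8.18e-05% and 7.87e-05%. KD 2 was highest for Hist1 and Hist2 and lowest for Hist3, where all 4 intervals overlapped. The ratio between the replicate 2 samples was 2.10 for Hist1, 1.32 for Hist2 and 0.892 for Hist3, and between the replicate 1 samples 1.06, 0.961 and 0.860. Hist2h2be held 622 of the 659 Hist2 counts in control 2 and 683 of 863 in KD 2. The Hist2 ratio therefore rests mainly on this gene, whose log2 change between these samples was 0.22, and is no measure of the cluster as a whole. Hist4h4, the lone gene of its cluster, had 3, 4, 0 and 12 counts in the same order of samples, and the Wilson interval for the 0 counts in KD 1 reaches 9.24e-06%.

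Of all 64 members, 60 (93.8%) had their highest CPM in KD 2, against 30.2% of the 21915 listed genes. The 4 exceptions were Hist1h1a, Hist3h2a, Hist3h2ba and Hist3h2bb-ps, 3 of which belong to Hist3. Hist1h1a, Hist3h2ba and Hist3h2bb-ps had only 2, 8 and 12 counts over all samples, so their order of samples is uncertain. Among tested genes these counts were 37 of 38 members and 32.8% of 14142 genes. In 52 members the level in KD 2 was at least 2 times the highest of the other 3 samples, against 5.06% of listed genes. Kap1 KD was above control in 61 members between the replicate 2 samples, against 47.2% of listed genes, and in 26 between the replicate 1 samples, against 42.6%. Both Kap1 KD samples lay above both controls in 17 members (26.6%), against 10.4% of listed genes. They lay below both in 1 member, Hist3h2ba, with only 3, 3, 1 and 1 counts, against 10.2% of listed genes. Since KD 2 was high in nearly every member, the 17 members are those in which KD 1 was also above both controls.

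Across all tested genes, edgeR's quasi-likelihood test called 0 genes at an adjusted p under 0.05 and a change of at least 1.5-fold (0% of 14142), and hence 0 of the 38 tested members. This test had little power here, since on simulated counts with the observed difference between replicate numbers it recovered 0 of 100 genes changed 2-fold and 0 of 100 changed 4-fold, so that 0 calls do not mean equal levels. At an unadjusted p under 0.05, 2 of 38 members passed, Hist1h2bf and Hist1h3b, against 1.31% of all tested genes. Hist1h2bf had 6 counts in each control, 11 in KD 1 and 37 in KD 2. It passed the filter on low counts only through the Kap1 KD samples, in which it was high, so its p-value carries no weight. DESeq2 called 2 genes higher and 1 lower, and no member was among them. The median log2 change was 1.26 over the tested members and -0.02 over all tested genes. Per replicate number, the median over these members was -0.01 between the replicate 1 samples, where 15 of 38 were above control, against 45.4% of tested genes, and 1.75 between the replicate 2 samples, where 38 of 38 were, against 49.3%. Without KD 2 the median was -0.09, and without KD 1 it was 1.92. In the latter fit 5 of 55 members were called higher, against 0.308% of 14606 genes. Only Hist1h1e of these had been tested with all 4 samples, and the other 4, Hist1h1b, Hist1h3d, Hist1h4c and Hist1h4d, passed the filter on low counts through the lone KD 2, in which they were high, so their calls carry no weight. With the replicate number as a block, edgeR called 24 of 38 members higher, against 2.06% of tested genes, and 0 lower, against 2.4%. The count includes Hist1h2bf, whose call carries no weight for the reason given above. It also includes Hist1h3f, with 7, 12, 7 and 35 counts, which needed KD 2, where it was high, to pass the filter. Of these 24 members, 11 (45.8%) were below control between the replicate 1 samples, against 10.3% of all 292 genes called higher, for example Hist1h2an, Hist2h3c2 and Hist1h4i, named after their values were seen, so that their calls rest on KD 2 alone. That fit had 1 residual degree of freedom and an infinite prior one, so that the spread of each gene was taken wholly from the trend over all genes. The next fits were added after the data were seen. DESeq2 with the same block gave only 3 of the 38 members an adjusted p, so its 0 calls are no test of the 24. With its p-values adjusted over all tested genes, DESeq2 also called 0 members. In that fit 6 of 38 members had an unadjusted p under 0.05, against 16.3% of tested genes, and the median log2 change of the members was 0.87.

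**Figure D2:**
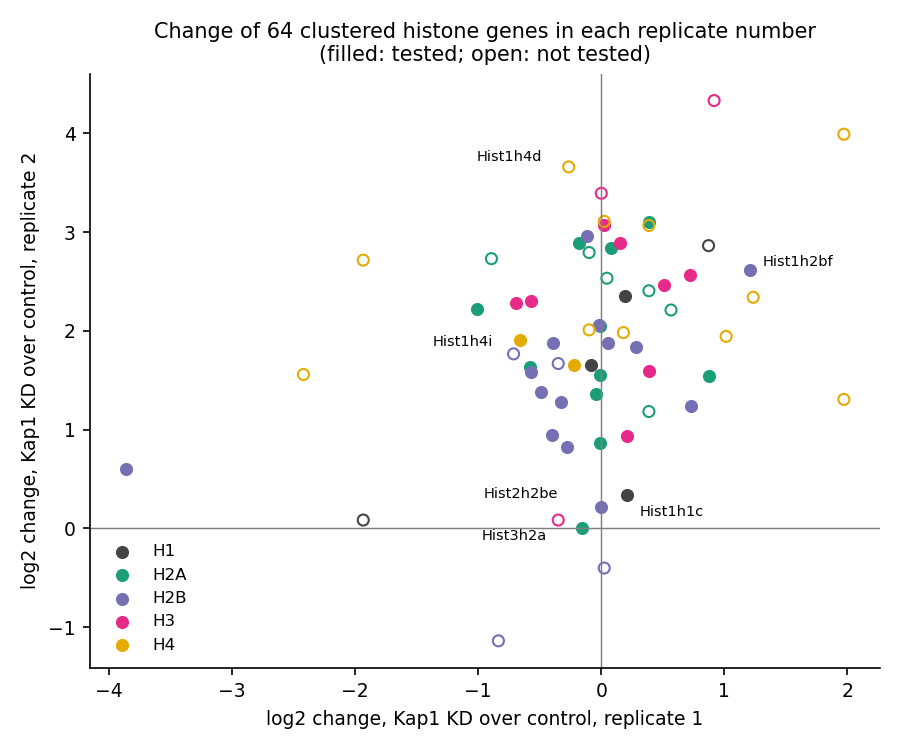
Log2 change of each of the 64 members between the replicate 1 samples (x axis) and between the replicate 2 samples (y axis), coloured by histone type, with 0.5 added to each count. Points spread on both sides of 0 along x, while 61 of 64 members had a higher CPM in Kap1 KD than in control 2.

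Among H1 genes, Hist1h1c was the most counted member. It had 21.7, 24.7, 25.2 and 31.1 CPM in control 1, control 2, KD 1 and KD 2. Both Kap1 KD samples were above both controls, KD 1 only just above control 2. The log2 change was 0.28 (standard error 0.22), and 0.13 without KD 2. Hist1h1d had 0.7, 0.625, 0.657 and 1.99 CPM, and Hist1h1e 0.413, 0.504, 0.47 and 2.61 CPM. In both genes KD 2 was the only high sample and KD 1 lay between the controls. Their log2 changes were 0.997 (standard error 0.61) and 1.75 (standard error 0.86), and -0.002 and 0.04 without KD 2. Hist1h1b, named after its values were seen, had 2, 7, 3 and 51 counts.

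The H2A gene with the most counts, Hist1h2ac, had 0.593, 1.03, 0.587 and 1.88 CPM in the same order of samples. KD 2 was highest and KD 1 lowest, with the controls between them. The log2 change was 0.61 (standard error 0.67), and -0.45 without KD 2. Hist3h2a had 0.79, 0.766, 0.704 and 0.77 CPM. All 4 samples were close together, and the log2 change was -0.08 (standard error 0.34). Hist3h2a overlaps Trim17, Hist1h2ac a gene annotated as 5S rRNA and the H2B gene Hist1h2be the gene Gm11398, each on the same strand, so the reads of these 3 genes are uncertain.

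Among H2B genes, Hist2h2be had 11.7, 12.5, 11.7 and 14.6 CPM and Hist1h2bc 2.73, 3.59, 2.07 and 6.9 CPM. In both, KD 2 was highest and KD 1 lowest. The log2 changes were 0.12 (standard error 0.23) and 0.51 (standard error 0.62), and -0.05 and -0.60 without KD 2. Hist1h2bl had 0.503, 0.524, 0.493 and 2.22 CPM, Hist1h2be 0.323, 0.826, 0.54 and 1.97 CPM, and Hist1h2bj 0.233, 0.161, 0.211 and 1.32 CPM. KD 2 was above the other 3 samples in these genes, and KD 1 was not above both controls in any of them. Their log2 changes were 1.40 (standard error 0.76), 1.13 (standard error 0.80) and 1.95 (standard error 0.94), and -0.049, -0.078 and 0.10 without KD 2. Hist1h2bf had 0.108, 0.121, 0.258 and 0.791 CPM, so that both Kap1 KD samples were above both controls. It had the largest log2 change of the tested members with at least 50 counts, 2.18 (standard error 0.71), and 1.17 without KD 2, from 6, 6, 11 and 37 counts. Because it passed the filter on low counts only through the Kap1 KD samples, in which it was high, the filter favoured this rank.

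Hist1h2bq and Hist1h2br share 100% of their windows of 100 bases, the read length, with another gene, so their reads cannot be assigned to either. Together they had 92, 73, 66 and 208 counts, or 1.65, 1.47, 1.55 and 4.45 CPM. KD 2 was again the only high sample. The H2A pair Hist1h2ao and Hist1h2ap, chosen for the same reason, had 22, 16, 20 and 91 counts together. In all, 22 of the 64 members had over 50% of such windows in another gene, Hist1h2bl and Hist2h3c2 among them, and their single values are uncertain. Leaving them out, the ratio of the histone share was 1.36.

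Among H3 genes, Hist2h3c2, annotated as a pseudogene, had 0.467, 0.464, 0.282 and 2.29 CPM, and Hist1h3e 0.198, 0.262, 0.282 and 1.5 CPM. KD 2 was several times above the other samples in both, while KD 1 was lowest for Hist2h3c2 and just above both controls for Hist1h3e. The log2 changes were 1.47 (standard error 0.97) and 1.95 (standard error 0.87), and -0.71 and 0.30 without KD 2. Among H4 genes, Hist1h4i had 0.79, 0.665, 0.493 and 2.52 CPM and Hist1h4h 0.251, 0.544, 0.211 and 1.73 CPM. KD 1 was the lowest and KD 2 the highest sample in both. The log2 changes were 1.05 (standard error 0.80) and 1.30 (standard error 1.03), and -0.55 and -0.89 without KD 2. Hist1h4d, named after its values were seen and not tested in the fit of all 4 samples, had 5, 6, 3 and 77 counts. Of the 13 H4 genes, 11 were below the filter on low counts.

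Levels between genes were compared per kilobase of annotated exon (RPKM). Hist1h1c had 13.9, 15.8, 16.1 and 20.0 RPKM in control 1, control 2, KD 1 and KD 2. Hist1h2bc had 3.71, 4.87, 2.81 and 9.38 RPKM and Hist2h2be 4.47, 4.79, 4.46 and 5.58 RPKM. Hist1h1c was the highest of these 3 genes in each of the 4 samples, and the ranges of Hist1h2bc and Hist2h2be overlapped. By counts, these 3 genes held 71.1%, 72%, 73.2% and 46.5% of all histone counts in the same order of samples. Their summed share of all counts was 1.06 times control between the replicate 1 samples and 1.23 times between the replicate 2 samples, whereas for the other 61 members these ratios were 0.956 and 3.64. The make-up of the histone counts thus differed in KD 2, with H1 at 32.5%, against 45%, 45.8% and 49.6% in the other samples, and H4 at 9.09%, against 3.32%, 3.81% and 2.87%.

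The members also differ in how far their annotation runs past the stop codon. A split at 300 bases, made after the values were seen, put 47 listed members in a group with a short annotated end and 14 in a group with a long one, and 3 pseudogenes had no stop codon. The short group took 0.000948%, 0.000966%, 0.000919% and 0.00401% of counts in control 1, control 2, KD 1 and KD 2. The long group, which holds Hist1h1c, Hist2h2be and Hist1h2bc, took 0.00427%, 0.0046%, 0.00448% and 0.00638%. KD 2 was highest in both groups, at 4.16 times control 2 in the short group and 1.39 times in the long group. The latter is a ratio of sums led by Hist1h1c and Hist2h2be, and gene by gene the median log2 change between the replicate 2 samples was 1.24 over the 11 tested members of the long group and 1.98 over the 26 of the short group. In KD 2, 8 of 14 members of the long group and 42 of 47 of the short group were at least 2 times the highest other sample. Between the replicate 1 samples these ratios were 0.970 and 1.05. The groups overlapped gene by gene, since Hist1h3e, with an annotated end 421 bases after the stop codon, had a log2 change of 2.47 between the replicate 2 samples, and Hist3h2ba, in the short group, -1.14 from 3 counts in control 2 and 1 in KD 2.

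**Figure D3:**
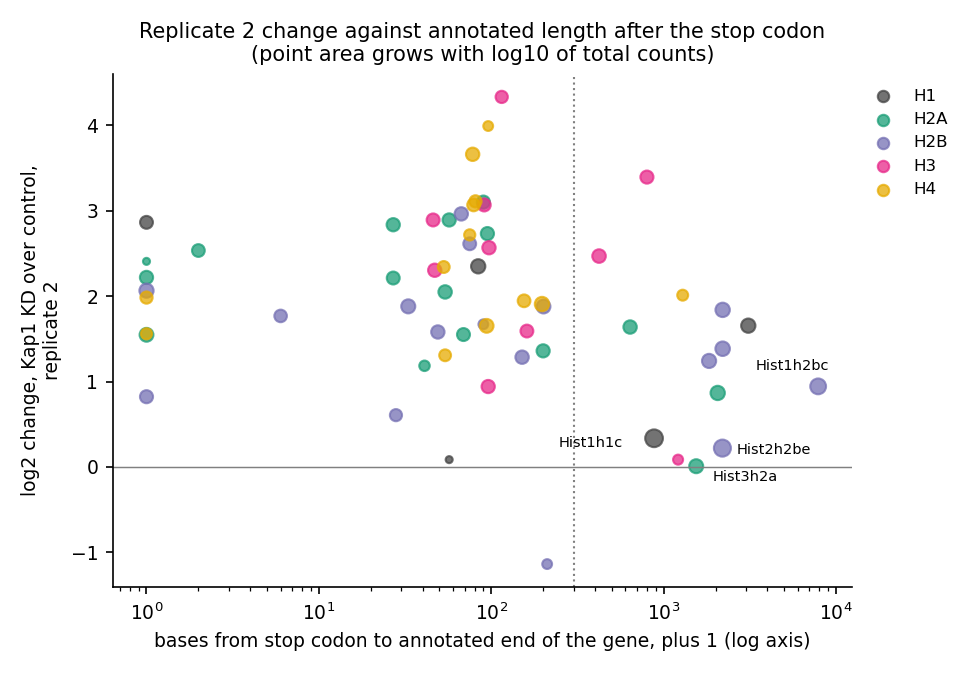
Log2 change between the replicate 2 samples against the distance in the genome from stop codon to annotated end (log axis, 1 added) for the 61 members with a stop codon. The dotted line is at 300 bases, and the abundant Hist1h1c and Hist2h2be lie right of it at 0.34 and 0.22.

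In 11 of the 12 divergent pairs, both the H2A and the H2B gene had their highest CPM in KD 2. The exception was Hist3h2a with Hist3h2bb-ps. Partners with the same stretch between their starts could still differ in size. Hist2h2ac had 8, 9, 3 and 59 counts in control 1, control 2, KD 1 and KD 2, and its partner Hist2h2be 652, 622, 497 and 683. KD 2 was far above the other samples for Hist2h2ac and close to them for Hist2h2be. Their log2 changes between the replicate 2 samples were 2.73 and 0.22. For Hist1h2ac and Hist1h2bc these changes were alike, 0.87 and 0.94, and in 8 of the 12 pairs the H2A gene had the larger change.

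**Figure D4:**
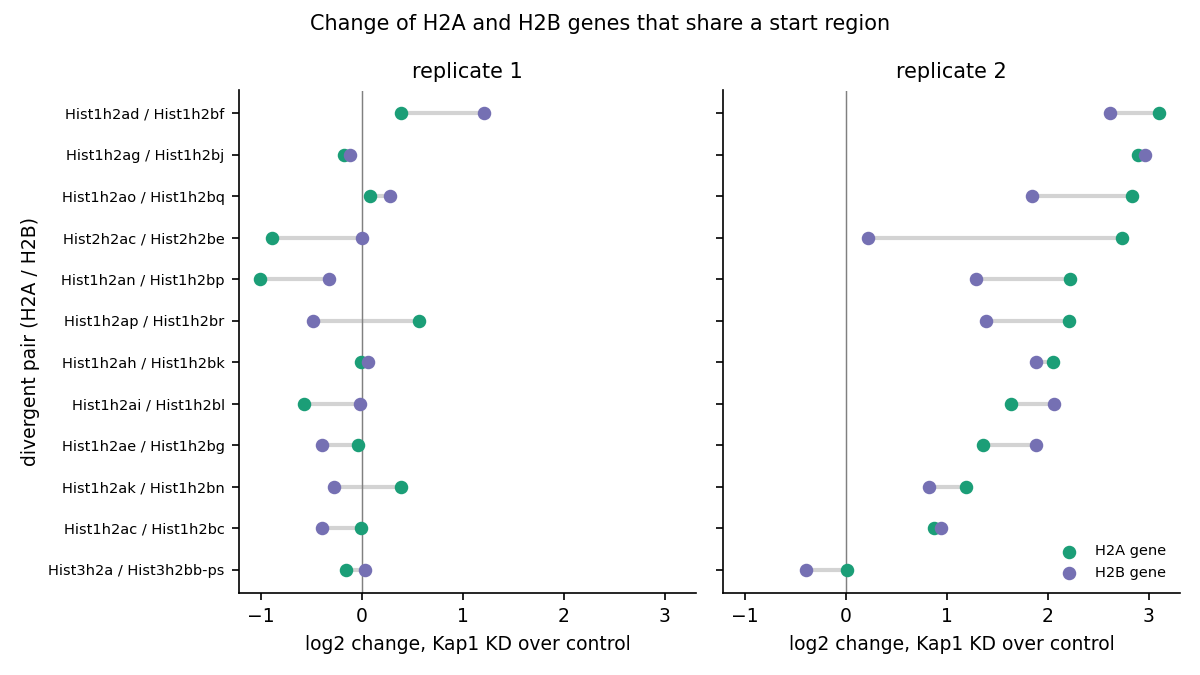
Log2 change of the H2A and H2B gene of each of the 12 divergent pairs between the replicate 1 samples (left) and between the replicate 2 samples (right), with a grey line joining partners. On the right, 11 pairs lie above 0 and the partners Hist2h2ac and Hist2h2be are farthest apart, at 2.73 and 0.22.

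**Figure D5:**
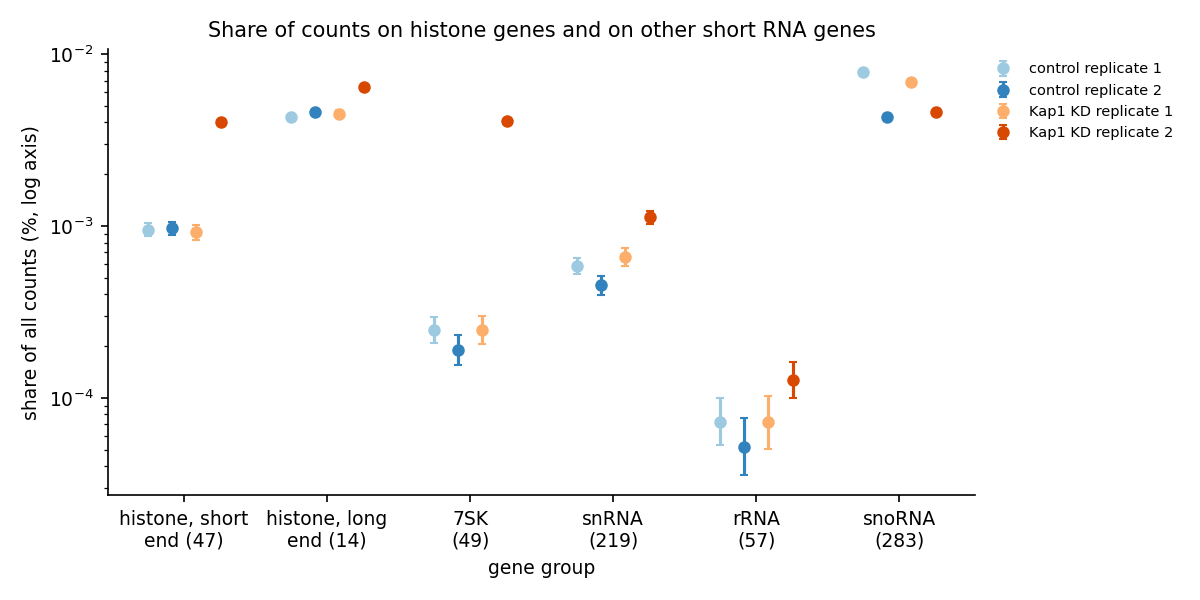
Share of all counts, in percent on a log axis, on histone genes with a short or long annotated end and on 7SK, snRNA, rRNA and snoRNA genes in the 4 libraries, with 95% Wilson intervals. KD 2 is the highest library in every group but snoRNA, and its 7SK share (0.00406%) is near that of the short histone group (0.00401%).

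Genes that act on histone mRNA were read as a list of 21, all tested, of which 0 were called, 0 had an unadjusted p under 0.05 and 0 were called with the block. DESeq2 without a block also called 0 of them. The median log2 change of the list was 0.01. The factors described next were chosen from the list after their values were seen. Slbp, which binds the stem-loop, had 42.1, 30.6, 40.8 and 30.5 CPM in control 1, control 2, KD 1 and KD 2. Npat, a coactivator of histone gene transcription, had 25.3, 12.5, 23.7 and 12.8 CPM, and Casp8ap2, of the same nuclear bodies, 48, 14.8, 38.7 and 13.4 CPM. In all 3 genes both replicate 2 samples were below both replicate 1 samples, and control and Kap1 KD samples overlapped. Lsm10 and Lsm11, subunits of the U7 particle that helps to cut histone pre-mRNA, had 18.2, 23.9, 19.2 and 25.5 CPM and 21.7, 23.8, 22.9 and 27 CPM. Groups overlapped for both. The most counted genes of the list were Snrpb, with 433.3, 532.5, 465.9 and 585.5 CPM, Ncbp1 and Sympk.

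The histone genes outside the clusters, some of which supply histones throughout the cell cycle, form a list of 11, all tested. Of these, 0 were called and 1 had an unadjusted p under 0.05, with a median log2 change of 0.11. H3f3b had 733.8, 546.9, 562 and 415.3 CPM and H2afz 432.8, 431.6, 402.5 and 378.1 CPM. Kap1 KD samples overlapped the controls for H3f3b and were below both for H2afz, with log2 changes of -0.39 (standard error 0.25) and -0.15 (standard error 0.16). With the block, 2 genes of the list were called higher and 1 lower, against 2.06% and 2.4% of tested genes, and these are named for that reason. H2afx had 57.4, 55.5, 71.3 and 106.7 CPM, H2afj 144.2, 121.6, 173.5 and 287.6 CPM, and H1f0 120.1, 104.5, 85.7 and 56.6 CPM. Both Kap1 KD samples were above both controls for H2afx and H2afj and below both for H1f0. Without the block, the log2 changes were 0.66 (standard error 0.25) for H2afx, 0.80 (standard error 0.29) for H2afj and -0.66 (standard error 0.26) for H1f0, and for each the quasi-likelihood test of edgeR gave 0.9999 as p adjusted by the Benjamini-Hochberg method. H2afx, which marks DNA breaks when phosphorylated, was among the other protein-coding genes with a stem-loop, printed here for comparison with those of the clusters and found at chr9:44143323-44143338 (plus strand).
H2afx: caaaGGCCCTTTTAAGGGCCacca
Its change was 0.31 on the log2 scale between the replicate 1 samples and 0.94 between the replicate 2 samples.

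Of 17 histone chaperone genes, all tested, 0 were called and 0 had an unadjusted p under 0.05, with a median log2 change of -0.01. Ssrp1, a subunit of the FACT chaperone, had 548, 582.7, 573.1 and 551 CPM in control 1, control 2, KD 1 and KD 2, and the groups overlapped. Of 26 genes used in S phase, all tested, 0 were called and 1 had an unadjusted p under 0.05, with a median log2 change of -0.02. With the block, 1 of them, E2f2, was called higher, against 2.06% of tested genes. E2f2 had 12.6, 7.34, 21.2 and 11.8 CPM in the same order, where the groups overlapped. The gene with an unadjusted p under 0.05 was Rrm1, with 337, 337.4, 254.3 and 219.4 CPM. Its log2 change was -0.51 (standard error 0.17), and it was not called with the block. Both Kap1 KD samples were above both controls in 3 genes of the list and below both in 3, against 10.4% and 10.2% of listed genes. Mcm7, a subunit of the replicative helicase, had 553.7, 683, 579 and 713.9 CPM, with both replicate 2 samples high. The summed level of the S phase list was 4686, 4630, 4658 and 4434 CPM, so that KD 2, where histone genes were high, was lowest by a small margin.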

How the data were processed

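The authors aligned the polyadenylated RNA reads to mm9 with TopHat2 2.0.11, reporting at most 1 alignment per read, and deposited whole-number counts per Ensembl gene from HTSeq 0.6.1, without normalisation (tools per the labels and methods). The strand setting of the counting is not given in the sources used here. The table of counts used here is named as if it held small RNA, yet the titles of the mRNA samples head its columns. The 2 small RNA tables hold no histone gene and were not used. The 4 mRNA samples were grouped by their genotype labels. Symbols, coordinates and sequences came from the GENCODE vM1 annotation and NCBIM37 (mm9) genome, and 21806 of 21915 identifiers matched. Tests used edgeR 4.0.16 in R 4.3.3, with its low-count filter filterByExpr, TMM normalisation, the quasi-likelihood test and Benjamini-Hochberg adjustment, and DESeq2 1.42.0 as an alternative, and the fit was tested on simulated data. Of 100 genes changed 2-fold and 100 changed 4-fold, edgeR without a block recovered 75 and 95 when no replicate effect was simulated (13930 genes), and 0 and 0 with the replicate effect as observed (14008 genes), where the block recovered 80 and 96. Log2 changes per replicate number used 0.5 added to each count, which understates changes of low genes. Other alternatives were scaling, the low-count filter, the replicate block, call rules and leaving out each sample. Named genes were Trim28, the 12 most counted members, the 2 most counted of each type, the 3 highest and 3 lowest log2 changes among members with at least 50 counts, and the 3 most counted genes of each list, of which some are described; any further gene was picked once its values were known. Members and lists were chosen with earlier results of these data known.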

Additional observations from a re-analysis of the deposited data

How the results depend on the processing

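Counts of genes called rested on the test and on the replicate number. Without a block, DESeq2 called 2 genes higher and 1 lower, and no histone gene. An unadjusted p gave 88 higher and 97 lower, with 2 histone genes higher, of which Hist1h2bf passed the filter on low counts only through the Kap1 KD samples. With the replicate number as a block, edgeR called 292 higher and 339 lower, with 24 histone genes higher, Hist1h2bf again among them. DESeq2 with the block, added after the data were seen, called 110 and 124. It gave 35 of 38 histone genes no adjusted p, and with p adjusted over all tested genes, also added then, it called 112 and 120, still without a histone gene. Same-numbered samples share only a number. Their deviations from the group means correlated at 0.855 across genes, which are not independent, and the first principal component (79.5% of variance) separated the numbers. Other scalings, no filter on low counts and an adjusted p alone left the calls at 0.

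Leaving out each sample in turn, with the lone sample of a group assumed to vary like the other group, gave 2 to 45 genes higher, 1 to 20 lower and 0 to 5 histone genes higher. The median log2 change of the tested histone genes lay between -0.09 and 1.92, and the ratio of the histone share between 0.998 and 1.96. The lowest values came from leaving out Kap1 KD replicate 2, as did the sign changes in Hist2h2be (-0.046 to 0.27), Hist1h2bc (-0.60 to 1.13), Hist1h2br (-0.48 to 1.38), Hist1h4i (-0.55 to 1.79), Hist1h2ac (-0.45 to 1.22), Hist1h1d (-0.002 to 1.58), Hist1h2bl (-0.049 to 2.11), Hist1h2be (-0.078 to 1.97), Hist2h3c2 (-0.71 to 2.29) and Hist1h4h (-0.89 to 2.12). The cause was not tested. With the replicate block, the ratio of the histone share was the geometric mean of its 2 within-number ratios. Depth limits single members, of which 18 had under 50 counts over all samples.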
